A study of Mus musculus with 3 samples.

Results

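The genes of the nuclear lamina and of the LINC complex (linker of nucleoskeleton and cytoskeleton) were described in KO-actin cells, which are mouse embryonic fibroblasts (MEFs) whose β-actin was knocked out and replaced by a nuclear form, β-actin tagged with a nuclear localization signal (NLS). The set held 10 of the 46603 genes counted and was chosen by symbol. It comprised the A-type lamin gene Lmna, the B-type lamin genes Lmnb1 and Lmnb2, the lamin partners Lbr, Emd and Tmpo, the SUN genes Sun1 and Sun2, and the nesprin genes Syne1 and Syne2. All 10 were found in the counts of 3 RNA-Seq libraries of polyadenylated RNA, numbered as replicates 1 to 3. The libraries share 1 genotype, the β-actin knockout with NLS-tagged β-actin, and received no further treatment according to the labels. Libraries of β-actin KO and wild-type MEFs were not analysed here, so the values are levels in KO-actin cells and give no change relative to either. The labels do not say whether the libraries came from separate cultures, so an SD or p-value measures the spread between these samples only, which may be technical.

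The lamina is a meshwork of intermediate filament proteins under the inner nuclear membrane that gives the nucleus its stiffness and anchors peripheral heterochromatin. LINC complexes span the nuclear envelope: SUN proteins in the inner membrane bind the lamina on one side and the KASH domains of nesprins on the other, and nesprins in turn bind actin, kinesin, dynein or plectin. In fibroblasts this chain connects cytoplasmic actin cables to the nucleus and is used to position and deform it.

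Sequencing gave 49932446, 49587453 and 44383636 counts in replicates 1, 2 and 3, of which the 10 genes took 0.238%, 0.25% and 0.238%. Of 12 fibroblast markers, 10 were above 3 counts in every library, with a summed level of 12449 to 13398 CPM (counts scaled by TMM to a common library size). Most of this sum came through Vim, Col1a1 and Fn1, with means of 4562, 4057 and 3578 CPM. Col5a1, Col3a1 and Pdgfrb averaged 295.7, 267.9 and 124.5 CPM. Col1a2 averaged only 20.99 CPM, far below Col1a1, and Pdgfra 4.97 CPM. Lum had 0 counts in every library, Fap had at most 1, and Dcn and Thy1 averaged only 0.152 and 0.836 CPM, so part of the fibroblast signature was absent or nearly so. Blood markers summed to at most 0.385 CPM, neuron markers to 4.37 to 6.37 CPM and skeletal muscle markers to 2.17 to 2.85 CPM. Smooth muscle markers summed to 1042 to 1051 CPM through Tagln and Cnn1, while Myh11 had 3, 7 and 6 counts. Epithelial markers summed to 78.7 to 87.4 CPM through Krt18 and Krt19, while Epcam had 0, 1 and 0 counts. Replicate 2 stood apart from the other libraries across all genes. The chi-square per gene was 11.1 between replicates 1 and 2 and 10.6 between replicates 2 and 3, against 3.72 between replicates 1 and 3.

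Levels of different genes were compared per kilobase of union exon, the summed length of all annotated exonic bases of a gene, with 3 other lengths as alternatives. On this scale the 10 genes spanned 695-fold, from Lmna at 161 CPM per kilobase to Syne1 at 0.232. The size of the span depended on the length, and without length the means were 942 CPM for Lmna and 9.40 CPM for Syne1. Whether reads covered the whole exonic length of Syne1, 40491 bases, was not tested. The median of the 10 genes was 34.2 CPM per kilobase of union exon. It was 7.19 for the 12081 protein-coding genes tested, which are those with at least 10 counts in every library. Of the 10 genes, 8 lay above the latter median. The nesprin genes Syne1 and Syne2 were the pair below it. In bulk RNA, fewer expressing cells and less RNA per cell cannot be told apart, for these or any other genes. The order from the top was Lmna, Lmnb1, Sun2, Emd, Tmpo, Lmnb2, Lbr, Sun1, Syne2 and Syne1. Of the 9 neighbouring pairs in this order, 3 overlapped between libraries, namely Lmnb1 with Sun2, Sun2 with Emd, and Lmnb2 with Lbr. Sun2 and Emd could not be ordered, since Sun2 was higher in 1 of 3 libraries and the log2 ratio was 0.00 ± 0.05 (SD, n = 3). The place of Tmpo below Emd held on this length alone, and Tmpo ranked 2, above Emd, under each of the other 3. Lmnb1 ranked 2 on this length alone. It ranked 5, 5 and 7 per kilobase of longest coding transcript, longest coding sequence and mean coding transcript. The order of Lmnb2, Lbr and Sun1 also moved with the length.

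**Figure D1:**
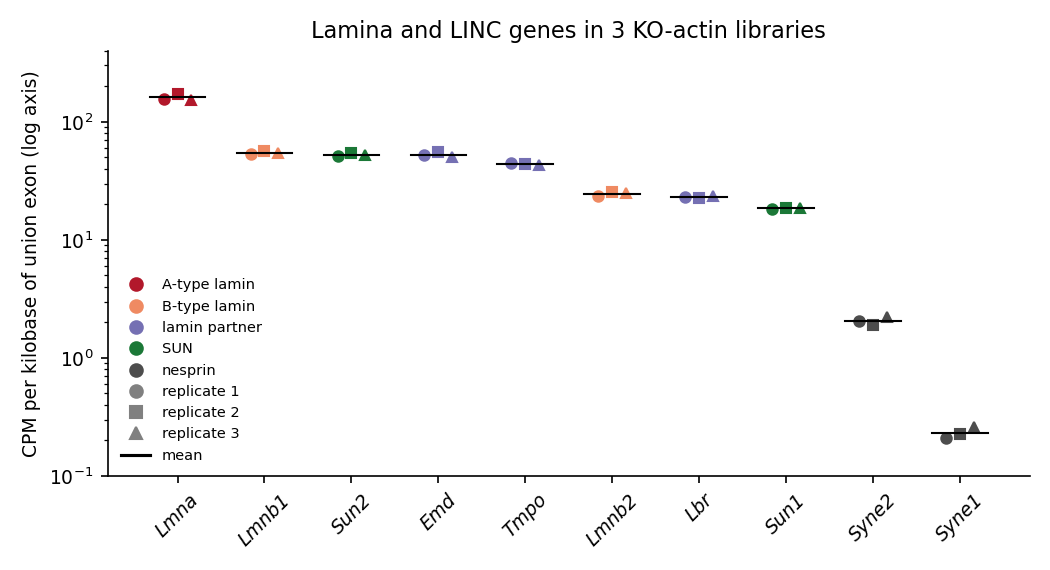
Level of each lamina and LINC gene in CPM per kilobase of union exon on a log axis, with 1 symbol per replicate, colour for the role of the gene and a bar for the mean of 3 libraries. Lmna stands alone at the top, 7 genes fall between 18.5 and 54.8 on average, and the nesprin genes Syne2 and Syne1 lie apart at 2.05 and 0.232.

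Lmna encodes lamin A and lamin C, the A-type lamins that scale with the stiffness of a tissue. Lmna (ENSMUSG00000028063, chromosome 3 from 88480147 to 88509956, minus strand; all positions are in GRCm38) had 45720, 49862 and 40084 counts in replicates 1, 2 and 3, or 916, 1009 and 899.8 CPM, a mean of 942 ± 59.2 CPM (SD, n = 3). Replicate 2 was the highest and the other libraries were close to each other. Per kilobase of union exon, Lmna had 157, 173 and 154 CPM, which placed it at the 98.1 percentile of the protein-coding genes tested. Transcripts for lamin A and lamin C are not told apart by a count per gene.

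Lmnb1 and Lmnb2 encode the B-type lamins, which remain farnesylated and attached to the inner nuclear membrane. Lmnb1 (ENSMUSG00000024590, chromosome 18 from 56707813 to 56753424, plus strand) had 158, 169 and 160.1 CPM in replicates 1, 2 and 3, a mean of 162 ± 5.63 CPM (SD, n = 3). Lmnb2 (ENSMUSG00000062075, chromosome 10 from 80901203 to 80918245, minus strand) had 101, 109 and 107 CPM, a mean of 106 ± 4.54 CPM (SD, n = 3). For both, replicate 1 was the lowest and replicate 2 the highest. Per kilobase of union exon, Lmnb1 had 53.4, 57.0 and 54.1 CPM and Lmnb2 23.5 to 25.5 CPM. Lmnb1 was thus above Lmnb2 in 3 of 3 libraries, with a ratio of 2.27, 2.23 and 2.17 and a log2 ratio of 1.15 ± 0.04 (SD, n = 3). Over the 4 lengths the mean ratio ran from 1.54 to 2.22, the union exon value being the highest, and in CPM without length it was 1.54. Loss of Lmnb1 is widely used as a mark of senescent fibroblasts. Here the gene stood at the 92.2 percentile of the protein-coding genes tested, per kilobase of union exon. Percentiles under the other lengths were not computed. A rank among genes does not measure loss, and without reference cells senescence was not tested.

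Set against both B-type genes together, Lmna was 2.04-fold, 2.10-fold and 1.95-fold higher per kilobase of union exon in replicates 1, 2 and 3, a log2 ratio of 1.02 ± 0.05 (SD, n = 3). Lmna made up 67.0 ± 0.812% of the lamin level per kilobase, Lmnb1 22.8 ± 0.445% and Lmnb2 10.2 ± 0.402% (SD, n = 3). The A-type gene was the higher one in every library, and the difference far exceeded the replicate SD. The size of the ratio depended on the length used, because the union exon length of Lmna, 5838 bases, is longer than its longest coding transcript, 3156 bases. With other lengths the ratio rose to at most 5.33, under the mean length of the coding transcripts, and the union exon value was the lowest.

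**Figure D2:**
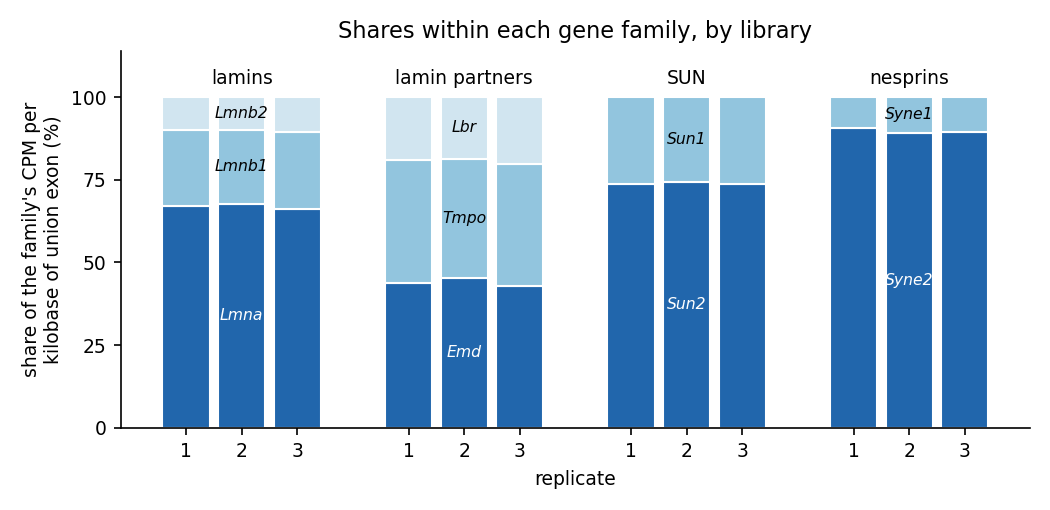
Share of each gene in the summed CPM per kilobase of union exon of its family, in percent, as stacked bars with 1 bar per replicate. Lmna takes 66.1% to 67.7% of the lamins and Emd 42.9% to 45.4% of the lamin partners. Sun2 takes 73.8% to 74.4% of Sun1 plus Sun2, and Syne2 takes 89.3% to 90.7% of Syne1 plus Syne2. The nesprin gene Syne3 is not part of these shares. With each of the other 3 lengths Tmpo has the largest mean share of the lamin partners, 45.4% to 52.8%, above that of Emd.

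Lbr, Emd and Tmpo encode proteins that tie the lamina to the inner membrane and to chromatin. The lamin B receptor Lbr also has a sterol reductase domain and holds heterochromatin at the nuclear edge, mainly in cells with little lamin A/C. Lbr (ENSMUSG00000004880, chromosome 1 from 181815335 to 181843046, minus strand) had 109, 107 and 112 CPM in replicates 1, 2 and 3, a mean of 109 ± 2.36 CPM (SD, n = 3), or 22.9, 22.5 and 23.5 CPM per kilobase. Lmna was above Lbr per kilobase of union exon in 3 of 3 libraries, 6.86-fold, 7.67-fold and 6.56-fold in turn, a log2 ratio of 2.81 ± 0.12 (SD, n = 3). Over the 4 lengths the ratio ran from 4.63, under the mean coding transcript, to 9.57. In all, 9.24% of the exonic bases of Lbr overlap Dnah14 on the opposite strand, a dynein gene with 0 counts in every library.

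Emd encodes emerin, a LEM-domain protein that binds lamin A/C and the chromatin protein BAF and is mutated in X-linked Emery-Dreifuss muscular dystrophy. Emd (ENSMUSG00000001964, chromosome X from 74254687 to 74261548, plus strand) had 132, 139 and 126 CPM in replicates 1, 2 and 3, a mean of 132 ± 6.19 CPM (SD, n = 3). Tmpo encodes the LAP2 proteins (thymopoietins), a LEM-domain family that includes membrane forms and the nucleoplasmic lamin A/C partner LAP2α. Tmpo (ENSMUSG00000019961, chromosome 10 from 91147571 to 91181315, minus strand) had 488, 480.2 and 474 CPM, a mean of 481 ± 7.14 CPM (SD, n = 3). The LAP2 isoforms are likewise not told apart. Per kilobase of union exon, Emd had 52.6, 55.0 and 50.1 CPM and Tmpo 44.4, 43.7 and 43.1 CPM, so Tmpo was the lower gene in 3 of 3 libraries at 0.843, 0.793 and 0.859 of Emd, a log2 ratio of -0.27 ± 0.06 (SD, n = 3).

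The order of Tmpo and Emd turned over with every other length tried. The union exon length of Tmpo was 10998 bases, against 3772 for its longest coding transcript. Tmpo was 1.54-fold above Emd per kilobase of longest coding transcript, 1.36-fold above it per kilobase of longest coding sequence and 1.61-fold above it per kilobase of mean coding transcript. No order between Emd and Tmpo can therefore be given. The Emd count carries a further limit, since 13.6% of its exonic bases overlap the pseudogene Gm14686 on the same strand and 17.5% of its 50-base windows also occur in other genes, most often Eif1. Gm14686 had 0 counts in every library. How reads shared by several genes were assigned is not given in the sources used here, and its part in the Emd level was not tested.

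**Figure D3:**
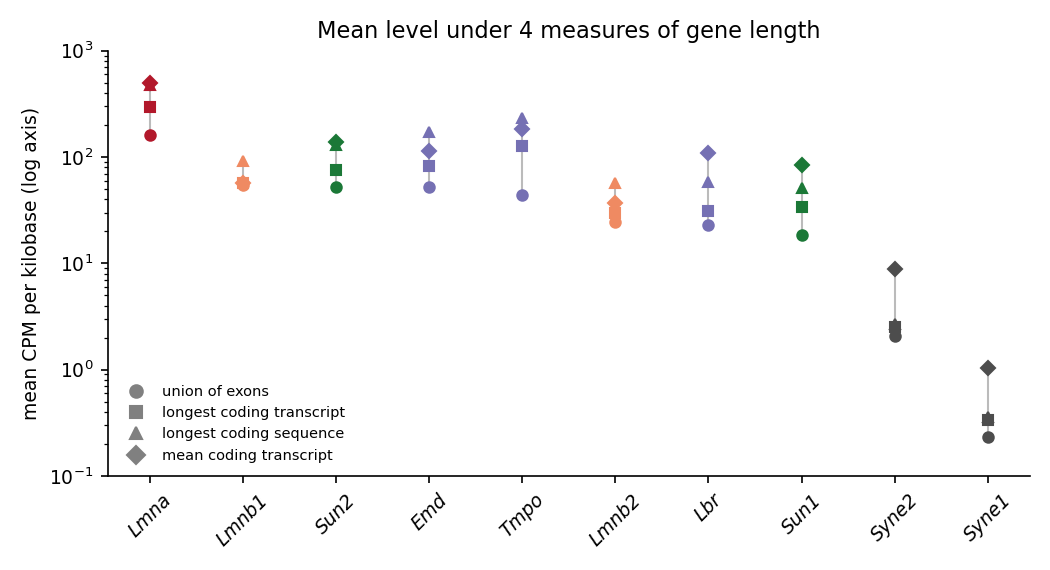
Mean level of each gene over 3 libraries in CPM per kilobase on a log axis, with 1 symbol for each of 4 measures of gene length joined by a line. Lmna ranks 1, Syne2 ranks 9 and Syne1 ranks 10 under all 4 lengths, while Tmpo moves between ranks 2 and 5 and Lmnb1 between ranks 2 and 7.

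Sun1 and Sun2 encode the broadly expressed SUN proteins, which share a role in anchoring nesprins but differ in partners, with Sun1 also needed at meiotic telomeres. Sun1 (ENSMUSG00000036817, chromosome 5 from 139200637 to 139249840, plus strand) had 138, 142 and 141 CPM in replicates 1, 2 and 3, a mean of 141 ± 2.30 CPM (SD, n = 3). Sun2 (ENSMUSG00000042524, chromosome 15 from 79724070 to 79742536, minus strand) had 277, 295 and 284 CPM, a mean of 285 ± 9.13 CPM (SD, n = 3). Replicate 1 was the lowest and replicate 2 the highest for both. Per kilobase of union exon, Sun1 had 18.2, 18.7 and 18.6 CPM and Sun2 51.1, 54.5 and 52.4 CPM, so that Sun2 was 2.84-fold above Sun1, a log2 ratio of Sun1 to Sun2 of -1.51 ± 0.03 (SD, n = 3). Sun2 was above Sun1 in 3 of 3 libraries and under all 4 lengths, where the ratio of Sun1 to Sun2 ran from 0.352 to 0.612. Sun2 accounted for 74.0 ± 0.358% of the summed SUN level per kilobase (SD, n = 3).

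Promoter sequences were read from RefSeq (GRCm38.p6) for 9 of the 10 genes, with 15 annotated starts among them, and Lmnb1 had no entry. In the 250 bases before each start, the GC box GGGCGG on either strand was found in 9 of 15 promoters. Over all 32851 promoters of the same length the share was 32.7%. Each of the 9 genes had at least 1 promoter with the box, a count per gene with no such share beside it. The GC content of the 250 bases ran from 38.8% to 70.8% over the 15 promoters, against a median of 52.4% over all promoters. Its part in the box counts was not tested. The CCAAT box, CCAAT on either strand, was found in 7 of 15 promoters belonging to 6 genes, against 33.8% of all promoters. TATAAA was found in 2 of 15, against 12.4% of all. The CArG box, the motif of serum response factor, whose cofactors sense actin monomers, was found in 0 of 15, against 1.47% of all. A match is a description of the letters only, and gene counts do not show which start the cells used. The 125 bases before the first listed start are shown for Emd and Tmpo, whose order could not be given, and for Sun1 and Sun2. Sun1 and Sun2 differed under every length. The same stretch is shown for Syne2, which was above Syne1. Capitals mark CCAAT and GC boxes on either strand, so that a box on the other strand reads ATTGG or CCGCCC.
Emd, chrX:74254562-74254686, plus strand: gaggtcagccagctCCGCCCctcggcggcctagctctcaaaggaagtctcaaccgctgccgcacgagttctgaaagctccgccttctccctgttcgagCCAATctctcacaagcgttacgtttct
Tmpo, chr10:91171620-91171744, minus strand: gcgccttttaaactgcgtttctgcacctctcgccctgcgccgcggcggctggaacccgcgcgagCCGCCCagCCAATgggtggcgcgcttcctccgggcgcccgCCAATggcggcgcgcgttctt
Sun1, chr5:139200512-139200636, plus strand: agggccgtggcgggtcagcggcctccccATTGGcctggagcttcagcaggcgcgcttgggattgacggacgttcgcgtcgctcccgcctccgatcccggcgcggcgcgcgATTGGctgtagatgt
Sun2, chr15:79742537-79742661, minus strand: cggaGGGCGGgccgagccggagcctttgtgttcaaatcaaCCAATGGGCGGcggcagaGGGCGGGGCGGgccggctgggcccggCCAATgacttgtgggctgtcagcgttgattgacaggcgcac
Syne2, chr12:75818193-75818317, plus strand: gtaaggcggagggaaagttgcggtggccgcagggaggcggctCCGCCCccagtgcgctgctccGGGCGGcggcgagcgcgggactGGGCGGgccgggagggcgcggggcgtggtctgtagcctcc

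The stretch before Sun2 shown above holds GC boxes before and after its first CCAAT box and none after its last, and the one before Sun1 holds CCAAT boxes alone. The stretch before Syne2 holds GC boxes alone. These differences in letters were not tested against the levels.

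Syne1 and Syne2 encode nesprin-1 and nesprin-2, whose giant isoforms carry actin-binding calponin homology domains at one end and the KASH domain at the other. Syne1 (ENSMUSG00000096054, chromosome 10 from 5020917 to 5551482, minus strand) had 424, 454 and 469 counts in replicates 1, 2 and 3, or 8.49, 9.19 and 10.5 CPM, a mean of 9.40 ± 1.03 CPM (SD, n = 3). Syne2 (ENSMUSG00000063450, chromosome 12 from 75818134 to 76110926, plus strand) had 2742, 2495 and 2638 counts, or 54.9, 50.5 and 59.2 CPM, a mean of 54.9 ± 4.36 CPM (SD, n = 3). For both genes replicate 3 was the highest, and the lowest was replicate 1 for Syne1 and replicate 2 for Syne2.

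Per kilobase of union exon, Syne1 had 0.210, 0.227 and 0.260 CPM and Syne2 2.05, 1.89 and 2.22 CPM. Syne2 was 8.86-fold above Syne1, a log2 ratio of Syne1 to Syne2 of -3.15 ± 0.13 (SD, n = 3). Syne2 was the higher gene in 3 of 3 libraries and under all 4 lengths, with a ratio of Syne1 to Syne2 between 0.113 and 0.134, the narrowest range over lengths of the 7 ratios computed. Both genes make many shorter isoforms, some without the actin-binding or the KASH domain, which a count per gene does not tell apart. Their exonic length is 40491 bases for Syne1 and 26726 bases for Syne2. Among the 89 protein-coding genes tested with at least 20000 exonic bases, Syne2 ranked 45 and Syne1 ranked 79 by level per kilobase. The spectraplakin genes Macf1 and Dst, which are of similar build and were picked after their values were seen, ranked 6 at 9.96 CPM per kilobase and 77 at 0.332 CPM per kilobase.

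Sun1 and Sun2 together were far above Syne1 and Syne2 together per kilobase. The nesprin gene Syne3, at 6.14 CPM per kilobase of union exon, was not part of this ratio. The summed level of Sun1 and Sun2 was 30.6-fold, 34.6-fold and 28.7-fold that of Syne1 and Syne2 in replicates 1, 2 and 3, a log2 ratio of 4.96 ± 0.14 (SD, n = 3). Over the 4 lengths the ratio ran from 22.4 to 60.3, and in CPM without length it was 6.64. An exact two-sided sign-flip permutation test gave p = 0.25 for each of the 7 ratios, from Lmna over the B-type genes to SUN over nesprin genes, and an adjusted p of 0.25 (Benjamini-Hochberg). This is the smallest p that 3 libraries allow, so no ratio could pass a threshold of 0.05, and the comparisons rest on the values in every library and their SD.

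The spread of each gene between libraries was set against counting error by a chi-square test on each gene that reached 10 counts in all libraries. At an adjusted p under 0.05 (Benjamini-Hochberg), 43.8% of 13814 genes varied beyond counting error, and 75.2% of those with a mean of at least 100 CPM did. Of the 10 lamina and LINC genes, 8 varied, and of the 8 among them with at least 100 CPM, 6 varied, which is close to the share of all genes that high. Lmna had the smallest adjusted p, 5.58e-76, with an SD of 0.09 on the log2 scale. Lbr (adjusted p = 0.162) and Sun1 (adjusted p = 0.243) did not pass. The sizes were small. The highest library exceeded the lowest by 1.03-fold to 1.24-fold, the latter for Syne1, and none reached 1.5-fold. The median SD was 0.06 on the log2 scale for the 10 genes, against 0.08 for all genes tested and 0.06 for those with a mean of at least 10 CPM. Against genes within 1.5-fold of the same CPM, Lmna had an SD of 0.09 where their median was 0.05, Syne2 0.11 where it was 0.06, and Tmpo 0.02 where it was 0.05, all on the log2 scale. These p-values compare the libraries of 1 condition and not conditions. The calls leaned on replicate 2: without it, 4 of the 10 genes varied (Lmnb2, Tmpo, Syne1 and Syne2) and 12.4% of all genes tested did. Without replicate 1 there were 5 of 10, and 32.9% of all genes, and without replicate 3 there were 6 of 10, and 34.2% of all genes. Syne2 was called whichever library was left out.

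Replicate 2 was the highest library for 6 of the 10 genes, Lmna, Lmnb1, Lmnb2, Emd, Sun1 and Sun2, and the lowest for Lbr and Syne2. Its log2 CPM minus the mean of replicates 1 and 3 was 0.15 for Lmna, 0.10 for Emd, 0.08 for Lmnb1 and for Lmnb2, 0.07 for Sun2 and 0.03 for Sun1. The difference was -0.001 for Tmpo, -0.04 for Lbr and for Syne1 and -0.18 for Syne2. The GC content of the longest coding transcript ran from 44.2% for Lbr to 59.3% for Lmna. It tended to rise with the difference but not gene by gene, since Syne2, the lowest, had 49.7%. Spearman's rho across genes was 0.57 over 12081 protein-coding genes and 0.79 over the 10 genes, which share the same 3 libraries and are not independent, so it is given as a description. Against genes within 1 percentage point of GC content, 9 of the 10 differed by -0.04 to 0.06 on the log2 scale. Syne2 was lower in replicate 2 by more, with a difference of -0.17, and 6.11% of the 1277 genes of similar GC content were lower still. The part of GC content in the spread was not tested.

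**Figure D4:**
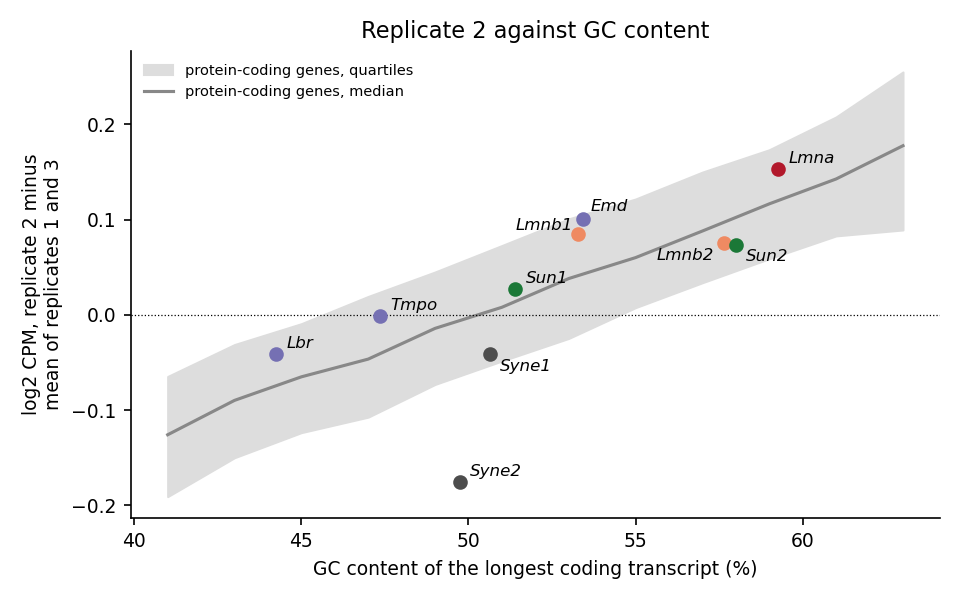
Log2 CPM in replicate 2 minus the mean of replicates 1 and 3, against the GC content of the longest coding transcript in percent. The line is the median and the band the quartiles of protein-coding genes in bins of GC content, and the points are the 10 lamina and LINC genes. Lmna lies at 0.15 and 59.3% and Lbr at -0.04 and 44.2%, both within the band, while Syne2 at -0.18 lies below the band.

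Genes that work with the lamina and the LINC complex were then counted from lists chosen by function. Of 45 such genes, 40 had more than 3 counts in every library, and the share of all genes above that floor was not computed. At least 10 counts in every library were reached by 38 of the 45, against 13814 of all 46603 genes. That comparison is uneven, since the lists name genes of known proteins while the 46603 genes are of every type. Of the 13814, 12081 were protein-coding, and the share among all protein-coding genes was not computed. Of the 38 listed genes tested, 20 varied beyond counting error. The share was 43.8% over all genes tested and 75.2% over those with a mean of at least 100 CPM. The lists hold well expressed genes, and 34 of the 45 averaged at least 10 CPM. The list for lamin maturation, which holds enzymes that farnesylate, cleave and methylate prelamin A and the prelamin A-binding factor Narf, had 6 of 6 genes above 3 counts, with Fnta, a farnesyltransferase subunit, highest at 33.7 CPM per kilobase and Zmpste24, the prelamin A protease, at 137 ± 4.54 CPM (SD, n = 3). Among other LEM-domain genes and BAF, Banf1, which encodes BAF, had 361 ± 11.2 CPM (SD, n = 3) and 242 CPM per kilobase, while Banf2 had 0 counts. Per kilobase of union exon Banf1 was above Lmna, but in CPM Lmna was the higher at 942. The order of Banf1 and Lmna was not checked under the other lengths. Of the genes listed under other inner nuclear membrane proteins, Lrrc59 was highest at 820 ± 47.1 CPM (SD, n = 3) and 267 CPM per kilobase. RNA does not show how much of a protein lies at that membrane. Plpp7 was near the floor with 4, 1 and 2 counts. All 7 genes of the torsin system, which are torsins and the genes Tor1aip1 and Tor1aip2 of torsin-interacting proteins, were above 3 counts, with Tor1a highest at 25.3 CPM per kilobase.

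Of the 7 remaining SUN and KASH genes, 4 had more than 3 counts in every library. Sun3 and Sun5, which are known from the testis, had 0 counts in every library, and Irag2 had 3, 1 and 1. Syne3, which encodes the plectin-binding nesprin-3, was the highest of the list at 34.1 ± 0.558 CPM (SD, n = 3) and 6.14 CPM per kilobase. Per kilobase of union exon Syne3 was above Syne2, but in CPM Syne2 was the higher at 54.9. The order of Syne3 and Syne2 was not checked under the other lengths. Syne4 had 16, 6 and 6 counts and Kash5, the meiotic KASH gene, 20, 9 and 13. The SUN gene Spag4 had 2.31 ± 0.200 CPM (SD, n = 3). All 8 cytoskeletal partners of nesprins were present, among them Plec, the linker of nesprin-3 to intermediate filaments, highest at 986 ± 41.2 CPM (SD, n = 3) and 54.4 CPM per kilobase, the formin gene Fhod1, which joins nesprin-2 to actin, at 75.4 ± 3.61 CPM (SD, n = 3), and the kinesin-1 gene Kif5b at 280 ± 17.2 CPM (SD, n = 3).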

How the data were processed

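The data were 3 RNA-Seq libraries (polyA RNA) of 1 group, KO-actin. For each Ensembl gene the authors deposited unnormalized counts. The submitters' processing notes name Trimmomatic, FastQC, HISAT2 and HTSeq and the build mm10 (GRCm38). Their versions, the annotation and the use of strand are not given in the sources used here. Without strand, reads of overlapping antisense genes cannot be told apart.

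Symbols were matched by identifier for 46005 of 46603 genes. Library sizes were scaled by TMM (edgeR 4.0.16, R 4.3.3) on genes that reached 10 counts in all libraries. GENCODE M21 (GRCm38) supplied coordinates, lengths and GC content. Spread between libraries was tested gene by gene with a chi-square (2 degrees of freedom, threshold 0.05 after Benjamini-Hochberg adjustment), which was checked on simulated data. The simulated counts held counting error and set changes only, so the check does not cover other spread between real libraries. Ratios were tested by exact sign-flip permutation. A floor of 3 counts, the limit that a count of 0 allows, covers counting error only. Python 3.11.15, numpy 2.4.6, pandas 2.3.3, scipy 1.17.1 and matplotlib 3.10.9 were used.

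The members and lists were chosen with earlier results of these data known. The text names all 10 genes and, in each wider list, the highest gene per kilobase and those at the floor. Other genes named from the lists were chosen after their values were seen. Alternatives were DESeq2 1.42.0 size factors, total counts, other count minimums, other lengths and leaving out each replicate. Peak lists and libraries of other genotypes were not used here.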

Additional observations from a re-analysis of the deposited data

How the results depend on the processing

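Scaling by DESeq2 size factors or by total counts changed the mean CPM of a lamina or LINC gene by at most 0.0118% and 0.0202%. The ratio of Tmpo to Emd turned over from 0.832 to 1.54 per kilobase of longest coding transcript, 1.36 per kilobase of longest coding sequence, 1.61 per kilobase of mean coding transcript and 3.63 in CPM without length. The other 6 ratios kept their direction under every length, in CPM without length and with each replicate left out in turn. The sizes moved more, and the ratio of Sun1 plus Sun2 to Syne1 plus Syne2 fell from 31.2 to 6.64 in CPM without length. Leaving out 1 replicate gave 1737 to 4811 genes and 4 to 6 of the 10 lamina and LINC genes varying beyond counting error. Without replicate 2, the count of genes fell from 6046 to 1737 and the members that varied were Lmnb2, Tmpo, Syne1 and Syne2. Without replicate 1 there were 5, where 32.9% of all genes tested varied, and without replicate 3 there were 6, where 34.2% did. Other scalings and count minimums of 1 or 100 kept the same 8 genes, out of 5718 to 6171 called in all. No paired analysis was possible because all libraries belong to 1 condition.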
